A study of Oreochromis niloticus and Pundamilia nyererei with 6 samples.

Results

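The light strand of the mitochondrial genome of Oreochromis niloticus (Nile tilapia, ON) carries 8 tRNA genes and ND6, and their abundance in liver was read from the transcript tables of 3 fish. The 9 genes were taken as every row of the mitochondrial sequence listed on the minus strand, with rows of 60 to 80 bases taken as tRNA genes and the single longer row as ND6. The rule used strand and length and no measured value, but it was set with earlier results of these data known. They are 9 of the 38 rows of that sequence and of 41456 rows in the ON tables. The plus strand, called heavy here, holds 28 rows, of which 14 are tRNA genes and 12 are protein genes, beside the rRNA genes. By start and end, 37 of the 38 rows matched a mitochondrial gene in a RefSeq gene table of the assembly O_niloticus_UMD_NMBU. The table gives ND6 its name but lists the tRNA genes only by locus tag (KEH09_t01 to KEH09_t22), without the amino acid, so these tags are used as names and are shortened to t01 to t22 in the plots.

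The study set liver transcripts of ON against those of Pundamilia nyererei, and only the ON libraries are used here. The 3 ON fish were tank-reared males of about generation 93 of a stock from Manzala, Egypt, untreated, with 1 library per fish. After DNase treatment the total RNA went through ribosomal RNA depletion, and strand-specific libraries were read from both ends with 75 bases per read. Coordinates are those of ASM185804v2, the assembly the reads were mapped to. The rows carry no gene symbol, so the tissue label was not checked against liver markers.

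In vertebrates both strands of the circular mitochondrial genome are transcribed from the control region into long RNAs that span many genes. tRNA genes lie between most rRNA and protein genes, and cutting the tRNAs out of the long RNA releases the mRNAs and rRNAs on either side. The heavy strand codes for nearly all of the products. ND6, a subunit of respiratory complex I, is the only protein coded on the light strand, and between its genes the light-strand RNA runs antisense to heavy-strand genes. The space between ND2 and COX1 holds a cluster of light-strand tRNA genes, and in vertebrates the origin of light-strand replication lies within it. Liver cells are rich in mitochondria.

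Abundance is given as FPKM, by name the number of fragments scaled to transcript length (per kilobase) and to the mapped fragments of the library (per Mio). In each library it was proportional to per-base coverage, so genes of different length are set side by side by their coverage. For rows shorter than a read, such as tRNA genes, the comparison with longer genes is less certain. Depth was nearly the same in the 3 libraries, with 1978219389 to 1997213175 aligned bases, which correspond to 13.2 to 13.3 Mio read pairs. This figure is back-calculated from coverage, lies above the mean number of read pairs that the labels give as generated, and may count reads aligned at several places more than once. The share of these bases on mitochondrial rows was 4.46%, 2.83% and 2.62% in fish 1, 2 and 3. In every fish most of that share lay on the rRNA genes, although the RNA had been depleted of ribosomal RNA. A value was called above the floor where it exceeded the FPKM that 3 reads of 75 bases would give, which is 1.54 to 1.72 for the light-strand tRNA genes and 0.216 to 0.218 for ND6. The floor covers counting error only.

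The length of the reads and the treatment of strand bear on every value below. A read of 75 bases is longer than every mitochondrial tRNA gene (66 to 73 bases on the light strand, 68 to 74 on the heavy strand), so an untrimmed read over a tRNA gene also covers its surroundings. All 8372 rows listed without a strand have a single exon, and whether the strand of unspliced reads was passed to the aligner or to StringTie is not stated in the labels or methods used here. Without it, RNA of a light-strand gene and RNA of the heavy strand across the same bases cannot be told apart.

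The median FPKM of light-strand tRNA genes was higher than that of heavy-strand tRNA genes in the liver of all 3 fish. The median FPKM was 30.3 over the 8 light-strand genes and 2.31 over the 14 heavy-strand genes in fish 1. In fish 2 it was 26.3 over the light-strand and 0.758 over the heavy-strand genes, and in fish 3 it was 34.6 over the light-strand and 1.14 over the heavy-strand genes. In fish 1 the light-strand median was 13.1 times the heavy-strand median. The heavy-strand median lay under the floor in the other fish, where the light-strand median was at least 15.7 times the floor in fish 2 and at least 20.9 times in fish 3. On the scale of log2(FPKM + 1) the light-strand median exceeded the heavy-strand median by 3.75 ± 0.44 (SD, n = 3 fish), and it was higher in 3 of 3 fish. The size rests on heavy-strand medians under the floor in 2 fish and on the pseudocount, with 1.82 at a pseudocount of 10 FPKM and 4.47 at 0.1. A two-sided exact sign-flip permutation over the 3 fish gave p = 0.25, the smallest that 3 fish allow. Both strands were measured in the same libraries, and genes of a strand are not replicates, so no test was run over genes. Low heavy-strand values also stood directly beside highly covered genes of the same strand. KEH09_t02, which abuts the rRNA gene KEH09_r01, was at 5.20, 3.17 and 9.51 FPKM in fish 1, 2 and 3. KEH09_r01 was at 20889, 14849 and 13547 FPKM. How reads were assigned between abutting rows was not tested, so the FPKM of a tRNA row may not give the level of its tRNA.

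**Figure D1:**
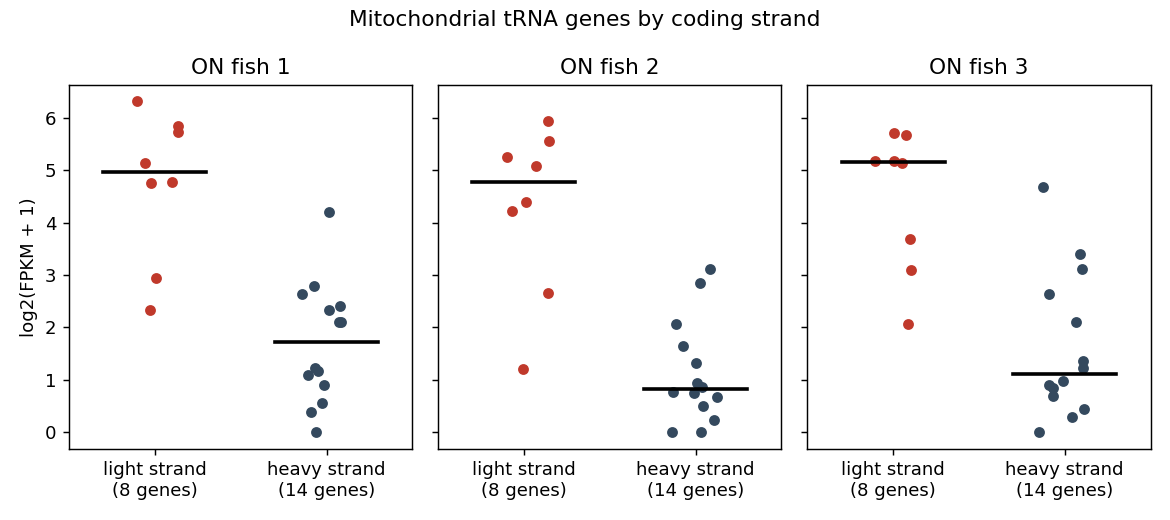
Each point is a mitochondrial tRNA gene in the liver of one ON fish, on a log2(FPKM + 1) axis, with the 8 light-strand genes left of the 14 heavy-strand genes and a bar at the median. The light-strand medians correspond to 30.3, 26.3 and 34.6 FPKM and the heavy-strand medians to 2.31, 0.758 and 1.14 FPKM in fish 1, 2 and 3.

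Of the 8 light-strand tRNA genes, 7 exceeded the 3-read floor in each of the fish, and KEH09_t05 did so in 2 fish. Of the 14 heavy-strand tRNA genes, 3 lay above the floor in every fish (KEH09_t02, KEH09_t04 and KEH09_t19), 5 in 1 or 2 fish only, and 6 in none. For all 41456 ON rows the share above the floor in every fish was 60.1%. Short rows rarely reached it, since 9 of the 282 stranded single-exon rows of 60 to 80 bases on nuclear sequences did so (3.19%). None of those 282 nuclear rows had an FPKM above that of KEH09_t09, the most abundant light-strand tRNA gene, in any fish, and their highest value was 9.85. Every light-strand tRNA gene exceeded the heavy-strand median in every fish, and no heavy-strand tRNA gene exceeded the light-strand median. The ranges of the strands overlapped all the same. In fish 1 and fish 2, 6 light-strand tRNA genes lay above every heavy-strand one, and in fish 3 it was 5, because heavy-strand KEH09_t04 stood at 24.7 FPKM there.

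The light-strand tRNA genes cover 559 bases and the heavy-strand tRNA genes 996. The light-strand ones took 85.2%, 89.6% and 79.8% of the aligned bases that fell on tRNA genes in fish 1, 2 and 3. Within all mitochondrial rows the 9 light-strand genes were a minor part, with 0.0517%, 0.0698% and 0.0785% of the aligned bases. Most of the remainder lay on the rRNA genes, and without them the light-strand genes took 1.34%, 1.61% and 1.74%. The 9 genes together drew 45897, 38999 and 41107 aligned bases, and those of each gene came to whole numbers in every fish within 0.02 base. The same held for 12 of the 14 heavy-strand tRNA genes.

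Along the genome the light-strand tRNA genes differed widely, and 4 of them in a row, between ND2 and COX1, took 77.7%, 72.2% and 75.1% of the light-strand tRNA bases. KEH09_t09 (positions 5235 to 5307, 73 bases) was the most abundant member in every fish, with an FPKM of 78.5, 60.02 and 51.5 in fish 1, 2 and 3. These values rest on 11400, 8667 and 7513 aligned bases. Averaged over the fish it stood at 63.3 ± 14 (SD, n = 3), with 742 of the 41456 ON rows higher. KEH09_t08 (5165 to 5233, 69 bases), which a single base separates from heavy-strand KEH09_t07, was at 56.4, 46.1 and 35.05 FPKM. It lay below KEH09_t09 in 3 of 3 fish, by 17.5 ± 4.1 FPKM (SD, n = 3). On the far side of a stretch of 33 bases that no row covers, KEH09_t10 (5341 to 5406, 66 bases) was at 51.8, 32.6 and 50.2 FPKM. KEH09_t11 (5407 to 5476, 70 bases) abuts it and was at 34.3, 20.03 and 35.2 FPKM.

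Within this cluster the level of KEH09_t09 was 2.28, 2.997 and 1.46 times that of KEH09_t11 in fish 1, 2 and 3. On the ND2 side of the cluster, heavy-strand KEH09_t07 was at 3.27, 0.597 and 1.57 FPKM. On the other side COX1, which codes for the catalytic subunit of cytochrome c oxidase on the heavy strand, begins 1 base after KEH09_t11. KEH09_t11 had 4.83%, 3.83% and 7.17% of the FPKM of COX1.

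**Figure D2:**
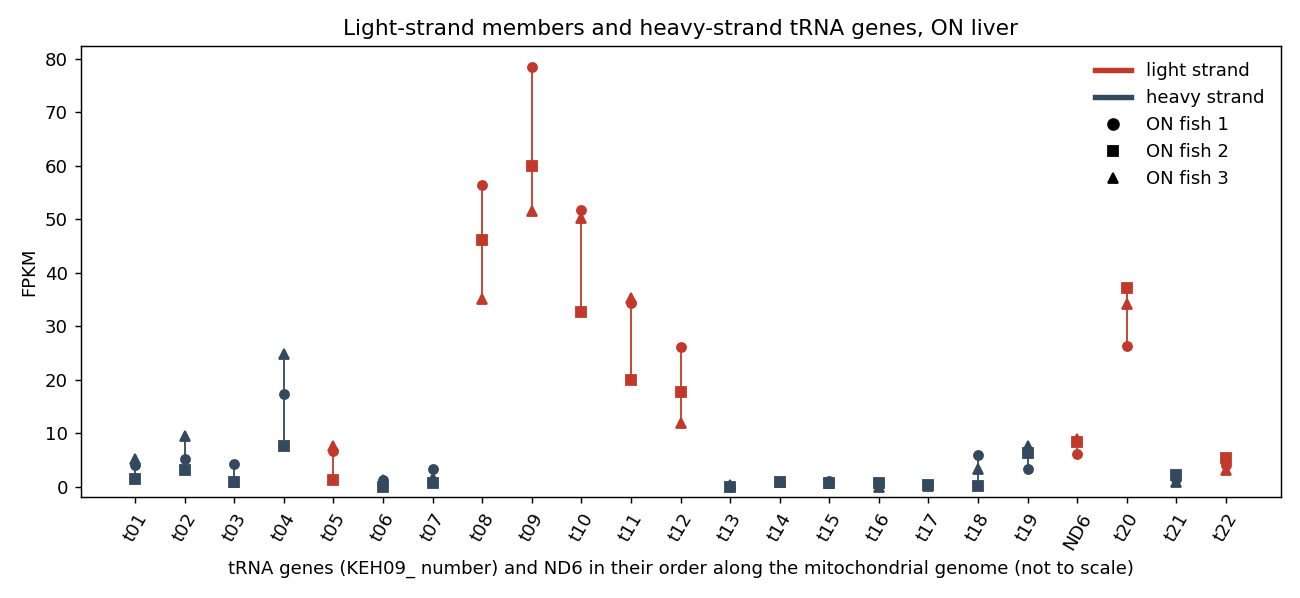
FPKM of the 22 mitochondrial tRNA genes and ND6 in genome order (evenly spaced, not to scale), with light-strand genes in red and heavy-strand genes in dark blue. Symbols are the 3 ON fish and vertical lines join the lowest and highest fish. The highest values are those of KEH09_t09 (51.5 to 78.5), within the cluster t08 to t11. At 26.3 to 37.2, t20 lies above the plotted genes on either side of it. CYTB, which is next to t20 and not plotted, was higher, at 47.0 to 57.0.

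KEH09_t12 (7074 to 7144, 71 bases) begins directly after the last base of COX1, on the opposite strand. Its FPKM was 26.0, 17.6 and 11.9 in fish 1, 2 and 3, which was 3.66%, 3.36% and 2.42% of that of COX1 (712, 523 and 491). Both genes were highest in fish 1 and lowest in fish 3. Heavy-strand KEH09_t13, which starts 3 bases further on, was listed at 0, 0 and 0.357 FPKM, under its floor in every fish. Whether the RNA over KEH09_t12 was coded on the light strand or was heavy-strand RNA running on from COX1 cannot be told apart in these tables.

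KEH09_t20 (14348 to 14416, 69 bases) abuts ND6, and read along the light strand it comes directly before ND6. On its other side, 4 bases away, lies heavy-strand CYTB, the gene of cytochrome b. Its FPKM was 26.3, 37.2 and 34.2 in fish 1, 2 and 3. This was 4.28, 4.49 and 3.82 times the FPKM of ND6, and 0.461, 0.790 and 0.652 times that of CYTB. Outside the cluster it had the highest FPKM of the tRNA genes of either strand in every fish. In fish 1 the lead over KEH09_t12 was marginal, at 26.3 against 26.0 FPKM, and KEH09_t12 drew more aligned bases there (3680 against 3608).

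KEH09_t05 and KEH09_t22 were the least abundant members. KEH09_t05 (3906 to 3976, 71 bases) was at 6.70, 1.32 and 7.59 FPKM, and the value of fish 2 lay under its floor of 1.602. It shares 1 base with heavy-strand KEH09_t04, the most abundant heavy-strand tRNA gene, which was at 17.3, 7.65 and 24.7 FPKM. Both were lowest in fish 2 and highest in fish 3. KEH09_t06, directly after KEH09_t05 on the heavy strand, was at 1.23, 0 and 1.34 FPKM and under its floor throughout. KEH09_t22 (15634 to 15703, 70 bases) lies last before the control region and so nearest to where light-strand transcription starts in vertebrates. It was at 4.03, 5.32 and 3.16 FPKM, above its floor in every fish. Heavy-strand KEH09_t21, which abuts it, was at 1.35, 2.11 and 0.793 FPKM, under its floor in fish 1 and 3. Both were highest in fish 2, and the order of the other fish in KEH09_t21 is not resolved under the floor.

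The levels of the members did not follow their distance from the control region. Read from the control region along the light strand, the mean FPKM (SD, n = 3) was 4.17 ± 1.1 at KEH09_t22, 32.5 ± 5.6 at KEH09_t20, 7.78 ± 1.5 at ND6, 18.5 ± 7.1 at KEH09_t12, 29.9 ± 8.5 at KEH09_t11, 44.9 ± 11 at KEH09_t10, 63.3 ± 14 at KEH09_t09, 45.8 ± 11 at KEH09_t08 and 5.20 ± 3.4 at KEH09_t05. In order of mean level, KEH09_t09 was followed by KEH09_t08, KEH09_t10, KEH09_t20, KEH09_t11, KEH09_t12, ND6, KEH09_t05 and KEH09_t22. Most neighbours in this order overlapped between fish. KEH09_t12 and ND6 were the only neighbouring pair whose ranges did not (11.9 to 26.0 against 6.13 to 8.93 FPKM). KEH09_t08 exceeded KEH09_t10 in 2 fish only, by 0.953 ± 15 FPKM (SD, n = 3), and KEH09_t20 exceeded KEH09_t11 in 1 fish only.

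ND6 (13826 to 14347, 522 bases) was at 6.13, 8.28 and 8.93 FPKM in fish 1, 2 and 3, which rests on 6370, 8548 and 9311 aligned bases. Every value lay far above the floor of at most 0.218, and 3683 of the 41456 ON rows had a higher mean. Among protein genes ND6 belonged to the lower part of the range. The median of the 12 heavy-strand protein genes was 19.5, 19.1 and 16.4 FPKM, and 8, 8 and 7 of them exceeded ND6. Those below ND6 include ND3 (0.036, 0.030 and 0 FPKM), under its floor in every fish. They also include ATP6 (0.0133, 0.0178 and 7.66 FPKM), under its floor in fish 1 and 2. ATP6 overlaps ATP8 (15.9, 22.1 and 16.6 FPKM) and COX3 (368, 196 and 222 FPKM). How reads were assigned between these rows was not tested, so the FPKM of a protein gene may not give its level either. On the scale of log2(FPKM + 1) the difference between ND6 and the median of the 12 was -1.15 ± 0.36 (SD, n = 3), and ND6 was lower in 3 of 3 fish (two-sided exact sign-flip permutation, p = 0.25, the smallest 3 fish allow). With only the heavy-strand protein genes above the floor in every fish, the difference was -1.34 ± 0.37 (SD, n = 3). Against the median of the 6 heavy-strand NADH dehydrogenase genes alone, which code for other subunits of complex I, it was -0.10 ± 0.76 (SD, n = 3) and had no common sign, with ND6 higher in 1 of 3 fish (two-sided exact sign-flip permutation, p = 0.75). That setting was chosen after seeing the data, and its 6 genes include ND3. They also include ND4, which was at 17.7, 14.1 and 2.59 FPKM in fish 1, 2 and 3. Fish 3, with the low ND4 value, was the fish in which ND6 was higher.

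**Figure D3:**
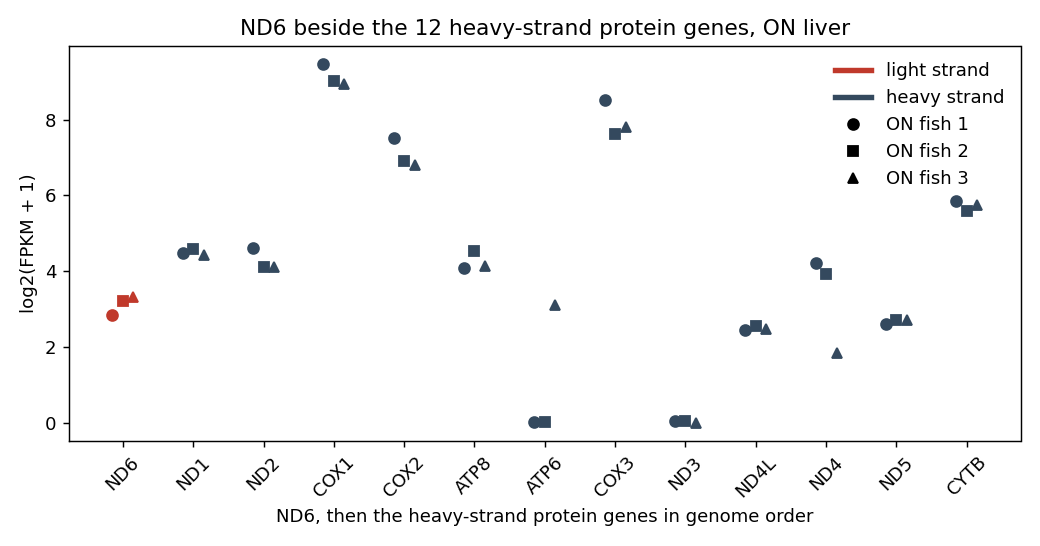
ND6 (red, left) beside the 12 heavy-strand protein genes (dark blue, in genome order) on a log2(FPKM + 1) axis, with 1 symbol per ON fish. ND6 stood at 6.13 to 8.93 FPKM, near ND5 and ND4L, and below COX1, COX2, COX3, CYTB, ND1, ND2 and ATP8 in every fish.

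ND5, a further complex I subunit on the heavy strand, faces ND6 tail to tail and shares 4 bases with it. ND6 exceeded ND5 in 3 of 3 fish, with 6.13, 8.28 and 8.93 FPKM for ND6 and 5.13, 5.57 and 5.58 FPKM for ND5. The ratio was 1.19, 1.49 and 1.60. On the scale of log2(FPKM + 1) the difference was 0.44 ± 0.20 (SD, n = 3; two-sided exact sign-flip permutation, p = 0.25, the smallest possible). The pair lies at a similar level, while KEH09_t20 on the other side of ND6 was several times higher. Of the light-strand tRNA genes, 6 (KEH09_t08 to KEH09_t12 and KEH09_t20) exceeded ND6 in every fish.

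The fish did not share one order over the members. Fish 1 was highest for 4 members, fish 2 for 2 and fish 3 for 3. The highest fish stood at 1.41 times the lowest in KEH09_t20, the narrowest member, 1.46 times in ND6, 2.20 times in KEH09_t12 and at least 4.74 times in KEH09_t05, whose lowest value lay under the floor and was set to it. Over the 8 members above the floor in every fish the median was 1.60 times. Over the 5465 ON rows that lay above the floor in every fish and within the members' range of mean FPKM, the median was 1.58 times. Fish 1 also had the highest share of bases on mitochondrial rows, most of them on the rRNA genes. The part of this in the members' values was not tested.

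Members that abut each other, or lie 1 base apart as KEH09_t08 and KEH09_t09 do, moved together between fish. Both cases are called abutting here. Relative to its own mean, KEH09_t08 stood at 1.23, 1.00 and 0.765 in fish 1, 2 and 3, and KEH09_t09 at 1.24, 0.948 and 0.814. KEH09_t10 stood at 1.15, 0.727 and 1.12, and KEH09_t11 at 1.15, 0.671 and 1.18. The pairs on either side of the uncovered 33 bases thus had different profiles, with fish 3 lowest in the one and near the top in the other. Likeness of profiles was measured as the root mean square difference of log2 FPKM after centring each gene on its mean over the 3 fish. It was 0.071 for KEH09_t08 and KEH09_t09, 0.079 for KEH09_t10 and KEH09_t11, and 0.097 for ND6 and KEH09_t20. The other 33 pairs of members differed by 0.184 to 1.44, with a median of 0.50. The widest were those with KEH09_t05, at 0.775 to 1.44, whose value in fish 2 lay under its floor. Without KEH09_t05 the highest was 0.689, for ND6 and KEH09_t12. Abutting genes can share the same reads, and each profile has 3 points from the same libraries, so these values describe the tables and were not tested. The grouping into abutting pairs was chosen after the values were seen.

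**Figure D4:**
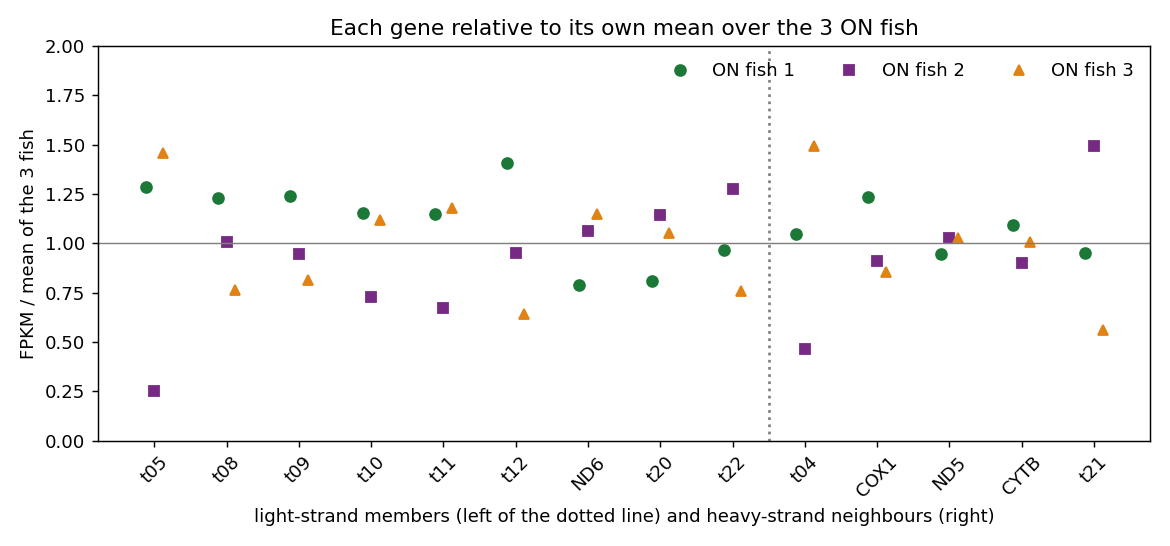
FPKM of each light-strand member (left of the dotted line, in genome order) and of 5 heavy-strand neighbours (right), divided by the gene's own mean over the 3 ON fish, so that 1 is that mean. Abutting members t08 and t09 (1 base apart), t10 and t11, and ND6 and t20 show the fish in like positions, and t05 ranges most widely (0.253 to 1.46).

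Among the 23 other mitochondrial rows above the floor in every fish, the profiles most like that of ND6 over the 3 fish were those of KEH09_t20 (0.097), ND5 (0.179) and ND4L (0.215), the last a further complex I subunit on the heavy strand. Most like KEH09_t09 were the longer rRNA gene KEH09_r01 (0.046), COX1 (0.052) and KEH09_t08 (0.071). COX2 (0.085) and ND2 (0.090) came next. Of these rows only KEH09_t08 lies next to KEH09_t09. Profiles as close as those of abutting members thus also occurred between KEH09_t09 and heavy-strand rows that do not adjoin it. Among the opposite-strand neighbours compared, each pair differed more than abutting members did. The values were 0.179 for ND6 and ND5, 0.26 for KEH09_t12 and COX1 and 0.27 for KEH09_t22 and KEH09_t21. They were 0.32 for KEH09_t20 and CYTB, 0.374 for KEH09_t11 and COX1 and 0.49 for KEH09_t05 and KEH09_t04. The values 0.27 and 0.49 use levels of KEH09_t21 and KEH09_t05 that lay under the floor.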

How the data were processed

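Liver libraries of 3 ON males were analysed, and the Pundamilia nyererei tables were not used. The authors aligned paired reads with HISAT2 2.1.0, assembled and merged transcripts with StringTie and the reference annotation, and filtered unexpressed and duplicated ones. They deposited an FPKM and a per-base coverage signal for each transcript, without read counts, which leaves count models out. Coverage divided by FPKM was constant in each library (relative tolerance 0.0001, rows above an FPKM of 50), which gave the aligned bases. FPKM used the full row length, also for rows shorter than a read. Whether reads aligned at several places, such as nuclear copies of mitochondrial sequence, entered once is not stated in the labels or methods, nor is the size selection of the libraries.

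All light-strand genes were named. Heavy-strand tRNA genes were named where highest or lowest, next to a light-strand gene or above the floor in every fish, and the 3 rows most like ND6 and the top tRNA gene were named. KEH09_t06, t07, t13 and t21 fall under the neighbours. Genes and rules were chosen with earlier results of these data known. Differences between strands within a fish were tested by exact sign-flip permutation with a pseudocount of 1 FPKM. The libraries are biological replicates per the study's methods. Floor calls and the permutation were tested on simulated data, which checks the code only and not the floor for rows shorter than a read. Alternatives covered pseudocounts (0.1 and 10), mean for median, filters, coverage for FPKM, floors of 1 and 10 reads, overlapping genes and leaving out each fish, and those added after seeing the data are named as such. Software was Python 3.11.15 with pandas 2.3.3 and numpy 2.4.6, and figures were drawn in matplotlib 3.10.9.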

Additional observations from a re-analysis of the deposited data

Results flagged for a closer look

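A single row of the ON mitochondrial sequence, mRNA3296, is listed without a strand and entered none of the comparisons between strands. Its bases count in the mitochondrial total behind the light-strand shares. It was also among the 23 rows whose profiles were set against ND6 and KEH09_t09. It spans positions 15935 to 16204 (270 bases), 231 bases beyond KEH09_t22, the last light-strand tRNA gene, and matches no gene of the RefSeq table. Its FPKM was 12.4, 8.09 and 9.27 in fish 1, 2 and 3, a mean of 9.91 ± 2.2 (SD, n = 3), above the level that 3 reads would give in every fish. For comparison, KEH09_t22 was at 4.03, 5.32 and 3.16 FPKM and ND6 at 6.13, 8.28 and 8.93. The strand of this RNA is not known from the tables, and no explanation was tested.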

How the results depend on the processing

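The excess of light-strand over heavy-strand tRNA genes kept its direction in 12 of 12 alternatives, 3 of them added after seeing the data. It ran from 1.82 at a pseudocount of 10 FPKM to 4.47 at 0.1 on the log2 scale. Of those added, leaving out the 4 genes between ND2 and COX1 gave 2.51. The others left out the tRNA genes next to COX1 or the heavy-strand tRNA genes next to an rRNA gene, and gave up to 4.01. Several of the 12 could not have reversed the excess. Per-base signal is proportional to FPKM within a library and returned the same 3.75. Changing the pseudocount alters the size but not the sign. Since the excess was positive in every fish, the mean stays positive whichever fish is dropped. The direction was open only in settings that changed the set of genes or took the mean over them. ND6 minus the heavy-strand protein genes ran from -3.40 (mean in place of median) to -0.10 (NADH dehydrogenase genes only, also added), and ND6 minus ND5 from 0.36 to 0.55. Leaving out 1 fish gave 3.60 to 4.01, -1.32 to -0.96 and 0.36 to 0.55 for these 3 differences, with an exact sign-flip p of 0.50, the smallest that 2 fish allow, which says nothing about stability. Light-strand tRNA genes above the floor in every fish numbered 6 to 8 of 8 under all floors (7 with reads clipped to the gene length, an added setting), beside 9 heavy-strand genes at 1 read and 1 at 10 reads. Without fish 2 they numbered 8, beside 6 heavy-strand genes in place of 3. The light-strand share of mitochondrial bases moved to 1.56% without the rRNA genes, against 0.067% with them, since these hold most of the bases. No paired analysis was possible because the replicate numbers that ON and Pundamilia nyererei share mark different animals and the species were not compared, while the strand differences above were taken within each fish. The heavy-strand median lay near or under the floor, so in 2 fish the light-strand median was set against the floor. That bound covers counting error only, and why the heavy-strand values were low was not tested.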
